A study of Mus musculus with 12 samples.

Results

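A set of 42 genes of the interferon response and of antigen presentation by major histocompatibility complex (MHC) class I was read in the dorsal raphe (DR) of mice lacking STAT3 in serotonergic cells. The genes were chosen by symbol for their known place in the pathway, with earlier results of these data known, and all 42 were among the 24421 gene symbols listed in the count files and among the 15453 genes that passed the expression filter. RNA was sequenced from 12 mice, 1 library per animal. STAT3 KO mice were Sert Cre/+; Stat3 fl/fl (4 females and 4 males). Control littermates were Sert Cre/+; Stat3 fl/+ (2 females and 2 males), so they carried the same Cre and 1 floxed Stat3 allele, and no animal without Cre was included. Both genotypes had a hybrid C57BL/6 x 129 background and entered the study at 8 to 16 weeks of age. Cre is driven by the serotonin transporter locus (Sert, Slc6a4), which restricts the deletion to cells that have expressed this gene, whereas the dissected tissue holds all other cells of the DR as well.

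Type I interferons bind receptors on the cell surface and activate, through the kinases JAK1 and TYK2, transcription factors such as STAT2, which acts together with IRF9. These factors switch on a large set of genes that detect viral RNA, block viral replication or load peptides onto MHC class I for display to T cells. In the brain, many of these genes have a low tonic level in the absence of infection, with microglia, border macrophages and vascular cells among their best known sources. STAT3 is activated by cytokines of the interleukin-6 family and shares upstream kinases with this pathway.

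Libraries held 24379588 to 29645210 counts on genes. Values are given as CPM, counts scaled to the normalised size of the library, in which the floor of 3 counts stands for 0.101 to 0.123 and covers counting error only. Stat3 itself had a mean of 66.6 CPM in the 4 controls (SD 1.49) and of 66.3 CPM in the 8 STAT3 KO mice (SD 2.72), and these whole-gene counts do not resolve the deleted exons. The serotonergic markers were high in every library, at a summed 1347 to 1999 CPM over 6 genes. Control 4 stood apart by genes of forebrain excitatory neurons (summed 253 CPM, against at most 77.4 CPM in any STAT3 KO library), and 2 STAT3 KO libraries held choroid plexus transcripts (up to 239 CPM, against 16.4 to 23.5 CPM in controls). In such bulk tissue, fewer cells of a type and less RNA per cell cannot be told apart.

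The level of the genes, given as CPM per kilobase of merged exons and averaged over the 12 libraries, spanned about 3 orders of magnitude. B2m, the light chain that every class I molecule needs, was highest at 111 CPM per kilobase. It was followed by Ifi27, a small interferon-induced membrane protein (21.6), H2-K1, a classical class I heavy chain (13.03), Tapbp, the bridge between class I and the peptide transporter (10.7), and H2-D1, the other classical heavy chain (7.98). At the other end were Mx1, an antiviral GTPase (0.108 CPM per kilobase), Ifi44 (0.174), Nlrc5, the transactivator of class I genes (0.177), and Oas2, which makes the 2'-5' oligoadenylates that activate RNase L (0.207). Between 3 and 3097 counts lay behind a single value, and 41 of 42 genes had at least 10 counts in every library, the exception being Mx1. Ifit3 stood at 7.34 CPM per kilobase, but 41.1% of the 75-base windows of its exons also occur in Ifit3b, and for Oas1a 47.6% occur in Oas1g. Counts of these 2 genes are therefore uncertain, since the way the authors' counting treated shared reads is not given. The strand setting is not given either, and 6 genes share over 10% of their exon bases with another gene, namely Tapbp (29%), Tap2 (18.5%), Ifi35 (16.8%), Psmb8 (14.7%), Rtp4 (13.9%) and Gbp7 (11.3%), so their counts are uncertain to that extent.

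Most of the genes differed little between the genotypes (plot of differences by gene). After adjustment for all genes tested, edgeR's quasi-likelihood test called 0 of the 42 genes for genotype at 0.05, the same share as over all genes (0%). Only 2 of the 42 reached 0.05 before adjustment, 1 higher and 1 lower in STAT3 KO, while 7.66% of all genes tested did. With limma-voom, always run here with sample weights, 0 genes of all tested had an adjusted p below 0.05. With DESeq2 2 genes did, of the 1391 to which it gave an adjusted p, and none of the 42 was among those 1391. The paper, which also used DESeq2, reported many more genes at a q below 0.05, and the reason for this gap was not tested. By exact permutation over animals 1 of the 42 reached p below 0.05, against 7.1% of all genes. The genotypes overlapped for every one of the 42 genes, while they did not overlap for 0.447% of all genes. The standard errors of the log2 fold changes ranged from 0.050 to 0.38 with a median of 0.13. A standard error is not the limit of detection, and differences of this size or somewhat larger could have been missed. Tap1, for instance, had a log2 fold change of 0.26 ± 0.13 and an edgeR unadjusted p of 0.075.

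**Figure D1:**
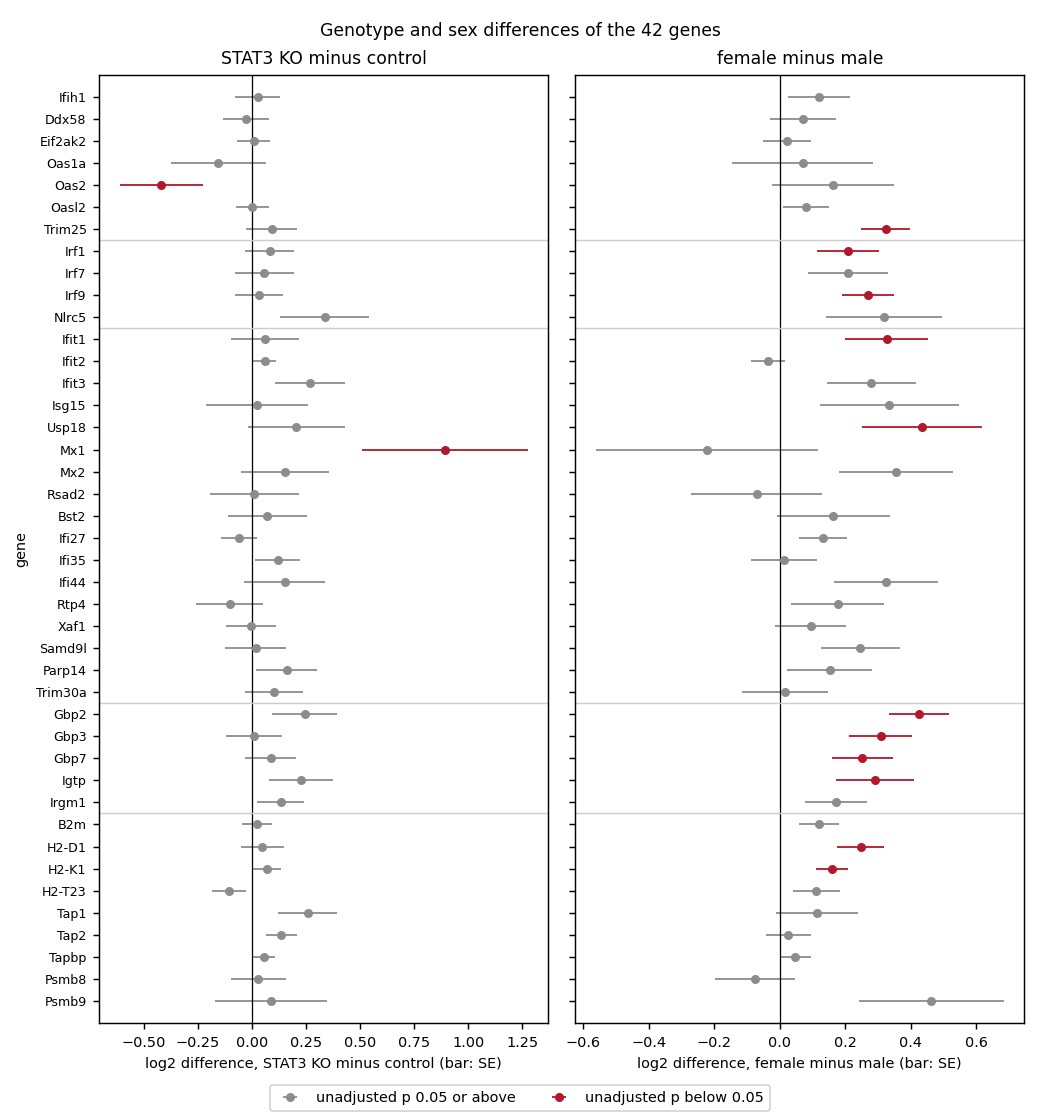
Log2 differences of the 42 genes, ordered by role from viral RNA sensing at the top to MHC class I at the bottom. Left, STAT3 KO minus control (8 against 4 animals). Right, female minus male with genotype in the model (6 against 6 animals). Points are estimates of edgeR's quasi-likelihood fit, bars are standard errors, and red marks an unadjusted p below 0.05. On the left 2 genes are red, Oas2 and Mx1. On the right 11 are red, all above zero.

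In direction, 35 of the 42 genes had a higher estimate in STAT3 KO, where 49.4% of all genes did. This lean rested on few animals. Without control 11, the male with the lowest levels, 24 of the 42 genes had a higher estimate in STAT3 KO. Without STAT3 KO 10, a female, 22 of the 42 genes had a higher estimate in STAT3 KO, against 49.3% of all genes, and the median log2 fold change of the 42 genes went from 0.060 to 0.014, with medians of all genes of -0.0011 and -0.0016. Markers of several other cell types also lay all or mostly in 1 direction between the genotypes. Higher in STAT3 KO were 5 of 5 ependymal markers (median log2 fold change 0.77, 3 with an unadjusted p below 0.05, summed level 22.7 to 67.3 CPM in controls and 33.8 to 88.1 CPM in STAT3 KO), 5 of 5 choroid plexus markers tested (0.32, 2 past that p, 16.4 to 23.5 and 18.8 to 239 CPM) and 6 of 6 astrocyte markers (0.050, 1 past it, 773 to 955 and 853 to 1107 CPM). Of the markers of perivascular and meningeal macrophages, 4 of 5 tested had a higher estimate in STAT3 KO (median 0.043, highest 0.61, 1 past it, 4.24 to 7.83 and 5.04 to 10.1 CPM). Lower in STAT3 KO were 7 of 7 markers of pericytes and smooth muscle (-0.12, 1 past it, 190 to 229 and 153 to 239 CPM), 6 of 6 of oligodendrocytes (-0.071, 1 past it, 13776 to 15231 and 11889 to 16037 CPM) and 6 of 6 of forebrain excitatory neurons (-1.20, 2 past it, 22.97 to 253 and 15.5 to 77.4 CPM). Markers of brain endothelium were lower in STAT3 KO for 8 of 10 and higher for 2 (-0.032, 0 past it, 410 to 499.97 and 376 to 504 CPM). Those of microglia were lower for 8 of 12 and higher for 4 (-0.032, 0 past it, 410 to 464 and 396 to 472 CPM). Serotonergic markers were higher for 4 of 6 and lower for 2 (0.024, 0 past it). All of these sums overlapped between the genotypes, and no marker of these lists was at 0 in all libraries or had an adjusted p below 0.05 for genotype. The part of these cells in the direction of the 42 genes was not tested.

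Mx1 was the gene with the smallest p for genotype. It was read at 0.247, 0.291, 0.262 and 0.231 CPM in controls 13, 4, 3 and 11, and in STAT3 KO mice at a lowest value of 0.110, a median of 0.470 and a highest value of 0.854 CPM. In 7 of 8 STAT3 KO animals it was above every control, and in STAT3 KO 14 it was below all of them. Its log2 fold change was 0.89 ± 0.38 (SE), and edgeR gave an unadjusted p of 0.034 and an adjusted one of 0.63. The exact permutation test, two-sided, gave p = 0.105 and DESeq2 an unadjusted p of 0.042. By limma-voom with sample weights the unadjusted p was 0.23 and the log2 fold change 0.55, with tool and weights changed together. With single animals left out the edgeR value ran from 0.0027 without STAT3 KO 14 to 0.073 without control 11. These values rest on 3 to 24 counts per library, and its paralog Mx2, annotated as a polymorphic pseudogene, had other values (log2 fold change 0.15 ± 0.20, correlation with Mx1 of -0.18 over the 12 libraries). STAT3 KO 6, the animal with the highest Mx1, also had the highest level of neutrophil transcripts (summed 5.30 CPM over 4 genes, all of them read there, against 0.224 to 1.28 CPM in controls) and of erythrocyte transcripts (summed 19.03 CPM, against 1.83 to 4.95 CPM in the other libraries, with 4 of the 5 markers at 0 throughout), and the part of these in the value of Mx1 was not tested.

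Oas2 went the other way. Controls 13, 4, 3 and 11 were at 1.07, 1.27, 1.27 and 0.809 CPM, and STAT3 KO mice ranged from 0.592 to 1.10 CPM with a median of 0.868. The groups overlapped, with controls 11 and 13 inside the range of STAT3 KO, and 1 of 8 STAT3 KO animals lay above the control mean on the log2 scale. The log2 fold change was -0.42 ± 0.19, and edgeR gave an unadjusted p of 0.045 and an adjusted one of 0.65, while the exact permutation p was 0.042. DESeq2 gave an unadjusted p of 0.084 and limma-voom with sample weights one of 0.052. With single animals left out the edgeR value ran from 0.016 to 0.137, and it was 0.137 without control 4 and 0.136 without control 3. The log2 fold change was -0.42 in females and -0.42 in males. The related synthetase Oas1a had a log2 fold change of -0.15 ± 0.22, and the synthetase-like Oasl2 one of 0.00083 ± 0.076.

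Within class I presentation, the peptide transporter had the next smallest p. Tap1, which with TAP2 pumps peptides into the endoplasmic reticulum, was at 5.15, 4.69, 4.45 and 5.24 CPM in the controls and at 4.80 to 8.18 CPM in STAT3 KO mice (median 5.49). Tap2 was at 17.6, 19.2, 20.3 and 19.7 CPM in the controls and at 18.03 to 24.04 CPM in STAT3 KO mice (median 20.9). For each gene 7 of 8 STAT3 KO animals were above the control mean, and neither passed 0.05 in edgeR or in the exact permutation test with all animals (log2 fold change 0.26 ± 0.13 with an exact permutation p of 0.101 for Tap1, and 0.13 ± 0.072 with 0.111 for Tap2). By limma-voom with sample weights Tap2 had an unadjusted p of 0.029, and edgeR gave 0.022 for Tap2 without STAT3 KO 8 and 0.046 for Tap1 without STAT3 KO 7. The chains of class I itself were closer to zero, with B2m at 0.022 ± 0.071, H2-D1 at 0.048 ± 0.10 and H2-K1 at 0.069 ± 0.066 (0.024 without control 11, 0.041 without STAT3 KO 10 and 0.12 without control 3). The inducible proteasome subunits Psmb8 and Psmb9, which shape the peptides that are loaded, had log2 fold changes of 0.030 ± 0.13 and 0.088 ± 0.26. Of the 9 class I genes, 8 had a higher estimate in STAT3 KO and the median log2 fold change was 0.055. The exception was the nonclassical class I gene H2-T23 at -0.11 ± 0.080.

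The other roles gave the same picture of small differences. Ifit3, Nlrc5, Gbp2 and Igtp completed the 8 genes with the smallest p. Ifit3, a partner of the RNA-binding protein IFIT1, had a log2 fold change of 0.27 ± 0.16 and Nlrc5 one of 0.34 ± 0.20, both with the highest value in STAT3 KO 10. Without that animal they were 0.13 and 0.23, and without control 11 Nlrc5 was at 0.16. For Nlrc5 8 of 8 STAT3 KO animals lay above the control mean on the log2 scale, which was pulled down by control 11 (0.771 CPM, when the other 3 had 1.31 to 1.61 CPM). The GTPases Gbp2 and Igtp, of families that act at the vacuoles of intracellular pathogens, were at 0.24 ± 0.15 and 0.23 ± 0.15. Median log2 fold changes were 0.071 for the 17 antiviral effectors, 0.070 for the 4 transcriptional regulators, 0.13 for the 5 GTPases and 0.00083 for the 7 sensors and enzymes of RNA sensing. Ifit1, Isg15 (a ubiquitin-like modifier) and Irf7 (the factor that amplifies type I interferon) were at 0.061 ± 0.16, 0.021 ± 0.24 and 0.057 ± 0.14. Stat3 lies on chromosome 11, as do 6 of the 42 genes, whose log2 fold changes ran from -0.0050 to 0.23 with 0 of 6 at an unadjusted p below 0.05.

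**Figure D2:**
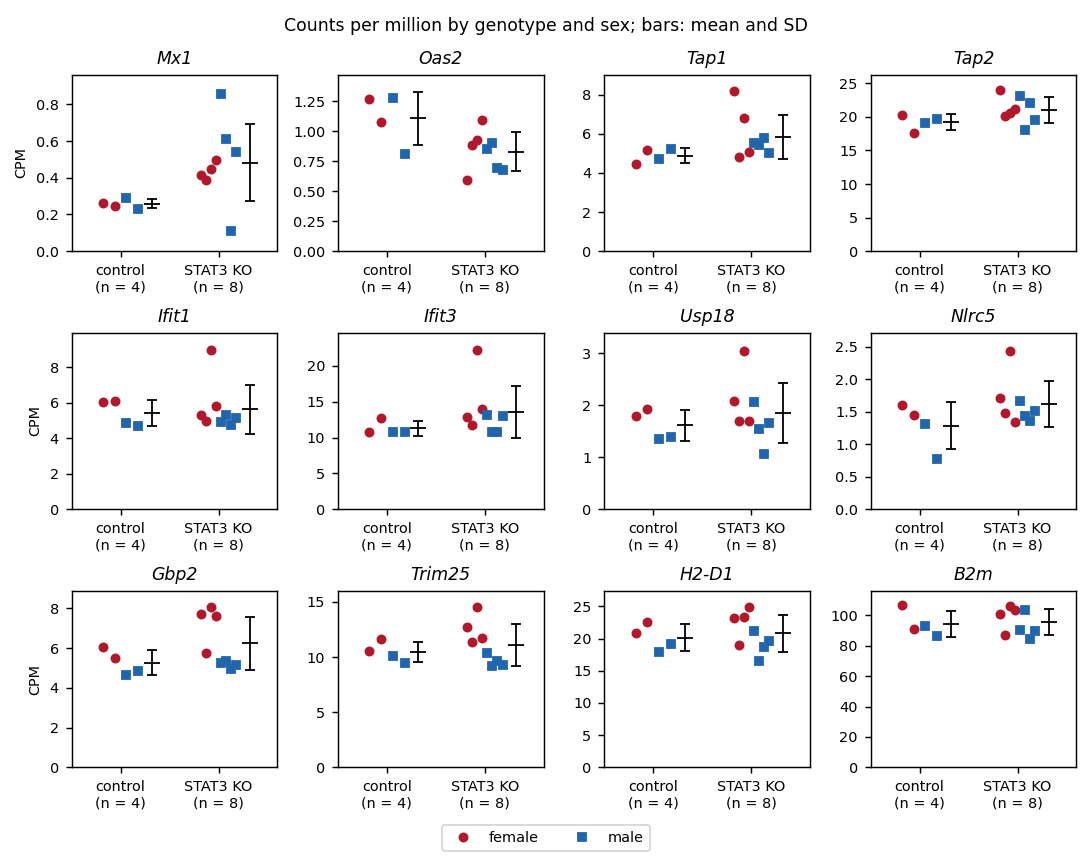
CPM of 12 of the genes in every animal, with controls on the left (n = 4) and STAT3 KO on the right (n = 8) of each panel. Circles are females, squares are males, and bars give the mean and SD of each genotype. Every axis starts at 0. The genotypes overlap in all panels, 1 female (STAT3 KO 10) is far above the rest for Ifit1, Ifit3, Usp18 and Nlrc5, and for Gbp2 and Trim25 all females lie above all males.

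The ligands of the pathway had almost no counts. Of 10 interferon genes listed, 8 had no count in any library, and the largest sum over all 10 in a library was 2 counts, which is below the floor of 3 counts. None of them passed the expression filter, so they could not be compared at this depth. How reads shared between similar genes were treated is not given, so a lack of counts need not mean a lack of transcripts. The receptors and their signalling partners were all measured, and 0 of 16 passed an unadjusted p of 0.05 for genotype, against 7.66% of all genes, with a median log2 fold change of 0.025. As mean ± SD over 4 controls and over 8 STAT3 KO mice, Stat2 was at 28.3 ± 2.46 and 28.9 ± 2.43 CPM, and Irf3, which acts downstream of the RNA and DNA sensors, at 21.7 ± 1.73 and 22.01 ± 1.93 CPM. Of 128 pathway genes listed beside the 42, 98 could be tested. In this wider list 2 had an unadjusted p below 0.05, both higher in STAT3 KO, against the 7.66% of all genes given above, and 0 had an adjusted p below 0.05. They were Psme1, a subunit of the proteasome activator PA28 (log2 fold change 0.15 ± 0.053, edgeR unadjusted p = 0.012 and adjusted p = 0.62), and Mr1, which presents vitamin B metabolites (0.26 ± 0.11, unadjusted p = 0.026). Among MHC class II genes 0 of 7 passed, and Cd74, the invariant chain, was at 3.56 ± 1.12 and 3.33 ± 0.648 CPM.

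The level of these genes varied between animals. The SD of log2 CPM over the 12 libraries was above the median of all genes tested (0.12) for 37 of the 42 genes, with a median of 0.22. Mx1, Psmb9, Isg15, Usp18, Nlrc5 and Rsad2 varied most, and their highest library exceeded the lowest by 7.77, 2.77, 2.34, 2.87, 3.16 and 2.29 times. At the other end, Ifit2, Tapbp and B2m moved by only 1.23, 1.20 and 1.26 times. One library accounted for many of the extremes. STAT3 KO 10 had the highest value of the 12 libraries for 25 of the 42 genes, against 7.89% of all genes tested, and the lowest for 0. Control 11 had the lowest value for 12 of the 42 genes, against 6.85% of all genes.

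**Figure D3:**
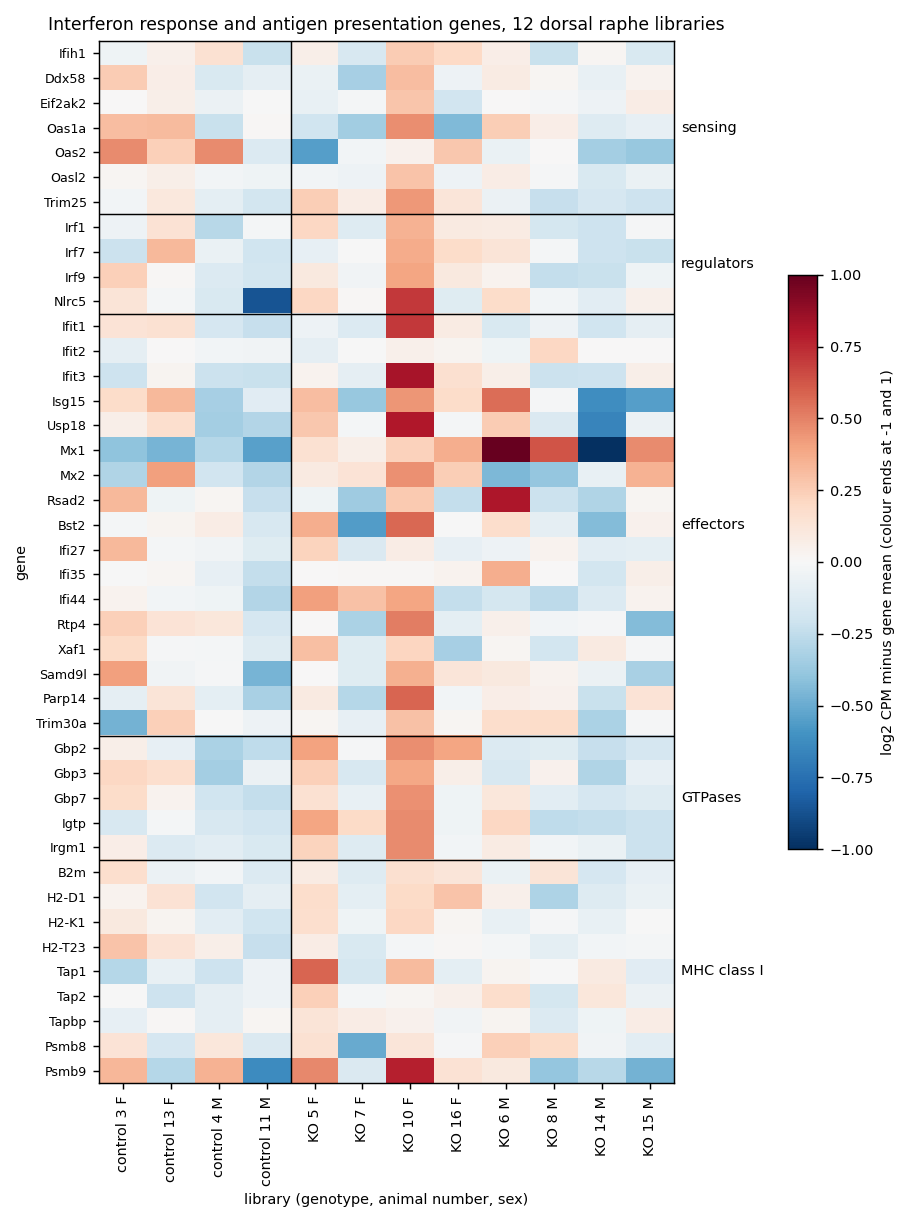
Log2 CPM of the 42 genes in each of the 12 libraries as the difference from the gene's mean, with red higher and blue lower. Columns are ordered by genotype, sex and animal number, and rows by role. The column of STAT3 KO 10 is red for most rows, and that of control 11 is mostly blue. Mx1, Rsad2 and Isg15 are reddest in STAT3 KO 6.

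In STAT3 KO 10, Ifit1 was at 8.98 CPM, when the other 7 STAT3 KO animals had 4.76 to 5.80 CPM and the controls 4.66 to 6.10 CPM. Ifit3 was at 22.2 CPM there and at 10.8 to 14.03 CPM in the other 7. Usp18, the protease that removes ISG15 from proteins and dampens interferon receptor signalling, reached 3.05 CPM in the same animal and had a median of 1.69 CPM in STAT3 KO and values of 1.94, 1.35, 1.79 and 1.39 CPM in controls 13, 4, 3 and 11. Each role was raised in this animal. As the mean of log2 CPM minus the gene mean, the score of the sensors was 0.29, that of the regulators 0.45, that of the effectors 0.40, that of the GTPases 0.45 and that of class I 0.20. The effector score was 0.17 or lower in each other library and lowest in STAT3 KO 14 (-0.28) and control 11 (-0.23). STAT3 KO 6 did not share the profile of STAT3 KO 10, since it led in Isg15 (2.49 CPM), Mx1, Rsad2 (4.84 CPM, against a STAT3 KO median of 2.49), Ifi35 and Psmb8, with a GTPase score of 0.022. Among cell type markers, STAT3 KO 10 had the lowest sum for pericytes and smooth muscle (153 CPM over 7 genes, none at 0, against 182 to 239 CPM elsewhere) and for brain endothelium (376 CPM, against 403 to 504), and the highest for perivascular and meningeal macrophages (10.1 CPM, against 4.24 to 9.15), meningeal fibroblasts (84.4 CPM, against 55.4 to 80.4), astrocytes (1107 CPM, against 773 to 1016) and ependymal cells (88.1 CPM, against 22.7 to 86.9). MHC class II genes were lowest there (13.9 CPM, against 14.6 to 18.96). The part of these cells in its values was not tested.

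**Figure D4:**
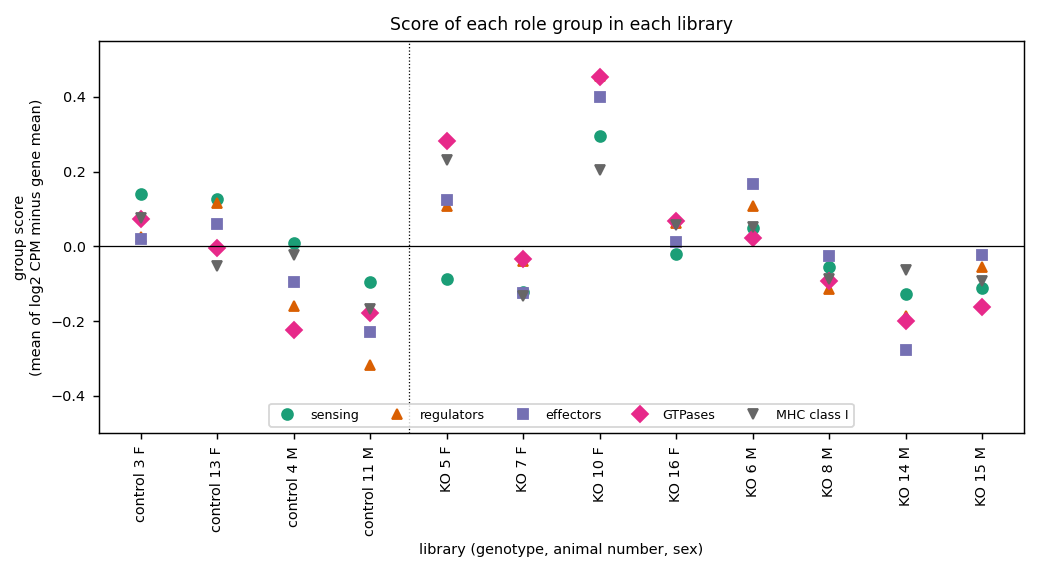
Score of each of the 5 roles in each library, as the mean over its genes of log2 CPM minus the gene mean. Libraries are ordered by genotype, sex and animal number, and the dotted line parts controls from STAT3 KO. All 5 scores are highest in STAT3 KO 10 (0.20 to 0.45), except that of class I, which is highest in STAT3 KO 5 (0.23).

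The genes rose and fell together across the animals. After the mean of each genotype was taken off, the median Pearson correlation over the pairs of the 42 genes was 0.45, against -0.0017 over all pairs of tested genes, and 30.3% of their pairs were above 0.6, against 4.49% of all pairs. These are descriptions over 12 libraries, where the points share library and depth. Without STAT3 KO 10 the median was 0.33 and 16.6% of pairs were above 0.6, against 5.33% of all pairs. With the mean of each sex within genotype also taken off it was 0.41. The GTPases were the tightest role, with a median of 0.74 (0.61 without STAT3 KO 10), followed by the regulators (0.56 and 0.35), the effectors (0.42 and 0.34), class I (0.41 and 0.38) and the sensors (0.34 and 0.11). This order changed once sex was also taken off, when the GTPases were at 0.64 and the sensors at 0.61, above the regulators (0.42), class I (0.36) and the effectors (0.35). Correlations between roles were of the same order, such as 0.71 for regulators with GTPases and 0.34 for effectors with class I.

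Single pairs show the range. Irf9, the DNA-binding partner of STAT2, correlated with Gbp7 at 0.92 (0.86 without STAT3 KO 10), and Oasl2 with Usp18 at 0.90 (0.86). Ifit1 and Ifit3 correlated at 0.89, a value that fell to 0.53 without STAT3 KO 10. Nlrc5 correlated with H2-K1 at 0.82 (0.73) and with H2-D1 at 0.39 (0.25). Tap1 and Psmb9, which are transcribed away from each other and whose promoter windows share 275 bases on chromosome 17, correlated at 0.40 (0.26). Ifit2 stood outside the module. Its correlation with Ifit1 was 0.16 (0.081) and with Ifit3 -0.031 (-0.34), its median correlation with the other 41 genes was -0.13, and with Tap2 it was -0.86 both with and without STAT3 KO 10. Tapbp, Tap2, Oas2 and Mx1 also had low median correlations with the others, at 0.15, 0.19, 0.20 and 0.20, while Gbp7 (0.71) and Irgm1 (0.65) had the highest.

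**Figure D5:**
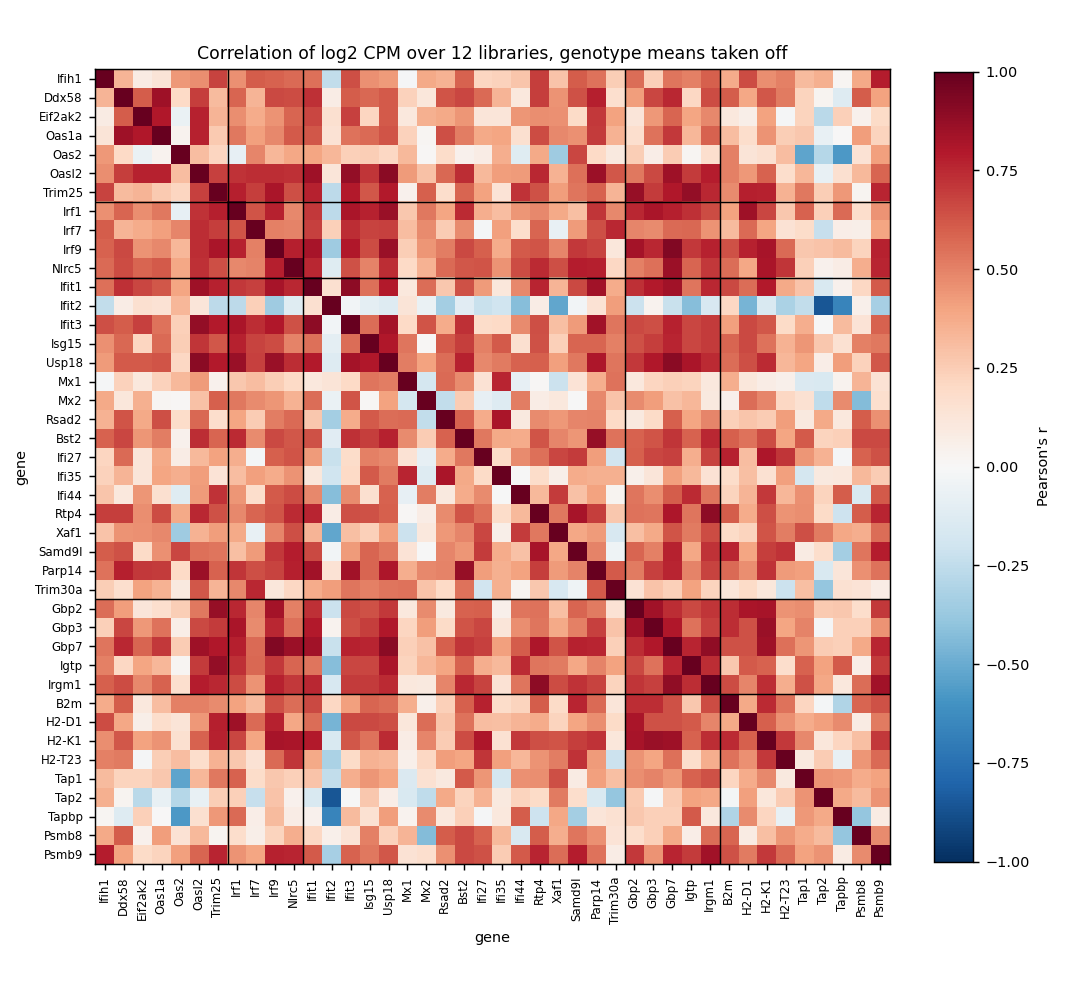
Pearson correlation of log2 CPM between each pair of the 42 genes over 12 libraries, after the mean of each genotype was taken off. Rows and columns are ordered by role and lines part the roles. Most of the field is red (median 0.45), and the blue row and column belong to Ifit2.

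Outside the 42 genes, the 10 tested genes most correlated with the effector score over the 12 libraries were Pi16, S100a11, Themis2, Slfn2, 5830415F09Rik, Apobec3, Ms4a6d, Gbp5, Inpp5d and Angptl4, with correlations from 0.93 for Pi16 to 0.85 for Angptl4 (0.78 to 0.94 without STAT3 KO 10). Slfn2, Apobec3 and Gbp5 are themselves known as interferon-induced or antiviral genes, and Inpp5d encodes the phosphatase SHIP1 of microglia and blood cells. Scores of cell type marker lists were compared with the effector score in the same way. The list of perivascular and meningeal macrophages correlated at 0.70 (5 of 6 genes tested, 0.78 without the 2 libraries farthest from the median effector score) and that of microglia at 0.51 (12 of 12 genes, 0.54). Meningeal fibroblasts correlated at 0.48 (0.22), brain endothelium at 0.12 (0.58) and astrocytes at 0.041 (-0.59), and of these 5 lists endothelium and astrocytes moved most without those 2 libraries. Summed macrophage markers were 4.24 to 7.83 CPM in controls and 5.04 to 10.1 CPM in STAT3 KO, with the highest value in STAT3 KO 10 and the lowest in control 11, and no marker on the list was at 0 in all libraries. Summed microglia markers were 410 to 464 CPM in controls and 396 to 472 CPM in STAT3 KO, with STAT3 KO 10 at 448 CPM. The part of these cells in the covariation was not tested. Defining markers of T and B lymphocytes reached at most 33 counts in sum in a library, and none of them passed the filter.

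Much of the set had higher estimates in females than in males. With genotype in the model, 38 of the 42 genes had a higher estimate in females, where 50.4% of all genes did, and the median female minus male log2 difference was 0.16, against 0.00093 over all genes. At an unadjusted p below 0.05, 11 of the 42 genes were higher in females, against 3.37% of all genes, and 0 were higher in males, against 3.83% of all genes. The 42 genes covaried over the same animals, so counts of this kind are not counts of independent genes, and a few animals can move many. As the mean over the 42 genes of log2 CPM minus the gene mean, females were at 0.084 (SD 0.15) and males at -0.084 (SD 0.11). After adjustment edgeR called 0 of the 42 for sex, and 13 of all genes tested (0.0841%). With DESeq2 1 of the 42 did, namely Gbp2 (adjusted p = 0.039), among 24 genes over all. In all 11 genes females were higher within controls and within STAT3 KO alike. An exact permutation of sex within each genotype, two-sided, also gave 11 genes with a p below 0.05 and higher in females, against 2.9% of all genes. Without STAT3 KO 10 the count fell from 11 to 6 genes, against 3.32% of all genes, and 35 of the 42 genes still had a higher estimate in females. Leaving out STAT3 KO 7, the female with low levels, gave 17 genes, against 3.34% of all genes.

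Gbp2 differed most clearly between the sexes. Females had a lowest value of 5.48 CPM, a median of 6.84 and a highest value of 8.05, and males a lowest value of 4.65, a median of 5.05 and a highest value of 5.33. The sexes did not overlap, and the female minus male log2 difference was 0.42 ± 0.092 (SE), or 1.34-fold, with an edgeR adjusted p of 0.35 and an exact permutation p of 0.0048, the smallest this design allows. It was 0.27 in controls and 0.48 in STAT3 KO. Trim25, the ubiquitin ligase that activates the RNA sensor RIG-I, was the other gene whose sexes did not overlap, against 0.453% of all genes. Its values were 10.6 to 14.6 CPM in females (median 11.68) and 9.18 to 10.3 CPM in males (median 9.54), with a log2 difference of 0.32 ± 0.074 and an edgeR adjusted p of 0.44. H2-D1 overlapped, at 19.1 to 25.0 CPM in females (median 22.9) and 16.5 to 21.2 CPM in males (median 18.9), with a log2 difference of 0.25 ± 0.072.

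By role, 4 of the 5 GTPases were among the 11 genes (Gbp2, Gbp3, Gbp7 and Igtp), together with 2 regulators (Irf1 and Irf9), 2 effectors (Ifit1 and Usp18), 2 class I genes (H2-D1 and H2-K1) and 1 sensing gene (Trim25). The median female minus male log2 difference was 0.29 for the GTPases, 0.24 for the regulators, 0.16 for the effectors, 0.11 for class I and 0.079 for sensing. Ifit2, Mx1, Rsad2 and Psmb8 were the 4 genes with a lower estimate in females, of -0.036, -0.22, -0.070 and -0.076. Of the 98 other pathway genes tested, 12 had an unadjusted p below 0.05 and were higher in females (3.37% of all genes) and 1 was higher in males (3.83% of all genes), with 0 at an adjusted p below 0.05. Gbp4 (log2 difference 0.57 ± 0.17), Gbp5 (0.35 ± 0.12) and Stat2 (0.16 ± 0.053) were among the 12.

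For several other cell types most marker estimates lay in 1 direction between the sexes. All 6 markers of meningeal fibroblasts had higher estimates in females, 2 with an unadjusted p below 0.05, and their summed level was 69.7 to 84.4 CPM in females and 55.4 to 68.3 CPM in males, with no marker at 0. Most of it came from Dcn and from Igf2, a growth factor of the meninges and choroid plexus that was the only one with an adjusted p below 0.05 (log2 difference 0.44 ± 0.072, edgeR adjusted p = 0.030). In the other direction, 0 of 7 pericyte and smooth muscle markers had a higher estimate in females (median log2 difference -0.18, 1 with an unadjusted p below 0.05 and higher in males), with a summed level of 153 to 221 CPM in females and 182 to 239 CPM in males. The same held for all but 1 of the 6 serotonergic markers (median -0.15, 2 with an unadjusted p below 0.05 and higher in males, 1494 to 1897 CPM in females and 1347 to 1999 CPM in males) and for all but 1 of the 10 markers of brain endothelium (median -0.070, 0 with an unadjusted p below 0.05, 376 to 499.97 CPM and 403 to 504 CPM). The ranges of these 3 sums overlapped between the sexes. Among markers of forebrain excitatory neurons 1 of 6 had a higher estimate in females (median -0.77, 17.8 to 77.4 CPM in females and 15.5 to 253 CPM in males). All 5 ependymal markers had a higher estimate in females (median 0.22, 30.01 to 88.1 and 22.7 to 86.9 CPM), as did 5 of 6 oligodendrocyte markers (median 0.015, 12003 to 15231 and 11889 to 16037 CPM). In each of these 3 lists 0 markers had an unadjusted p below 0.05 for sex. No marker of these lists was at 0 in all libraries. The part of these cells in the sex difference of the 42 genes was not tested. Perivascular macrophage markers were higher in females in 3 of 5 genes and microglia markers in 7 of 12, with 0 past an unadjusted p of 0.05. The summed macrophage markers were 5.04 to 10.1 CPM in females and 4.24 to 8.995 CPM in males.

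No genotype difference was shown to depend on sex. Of the 42 genes 0 had an unadjusted p below 0.05 for the interaction, against 5.49% of all genes, and after adjustment edgeR called 0% of all genes. The smallest p belonged to H2-T23, whose STAT3 KO minus control log2 difference was -0.23 in females and 0.035 in males (edgeR adjusted p = 0.93), and to Ddx58, the gene of RIG-I, with -0.17 in females and 0.14 in males (edgeR adjusted p = 0.95). With 2 controls of each sex, the standard errors of these interactions were 0.14 and 0.20.

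The promoters of the set were searched for the sequence that interferon-activated factors recognise. In RefSeq promoters of GRCm38.p6, which run from 250 bases before to 50 bases after the start of transcription, the core of the interferon-stimulated response element, read on both strands as GAAANNGAAA, was found for 17 of the 33 genes with an entry (51.5%), against 3.99% of all genes with an entry. With a further C (GAAANNGAAAC) it was found for 13 of 33 (39.4%) and for 0.944% of all genes. The gamma-activated site TTCNNNGAA, which STAT dimers bind, was found for 9 of 33 (27.3%) and for 9.55% of all genes. All 5 GTPases had the first core, as did 4 of 6 sensing genes, 6 of 11 effectors, 2 of 8 class I genes and 0 of 3 regulators. A match is a description of the letters and does not show that a factor binds there. The absence of a match does not show that an element is missing, since sequences that differ from the core by a letter are not counted.

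The 160 bases that precede the start of transcription are shown for 10 genes that hold a core there. They are 3 of the effectors, the 5 GTPases and 2 class I genes, each 5' to 3' on the strand of the gene. Capitals mark the core GAAANNGAAA on either strand, which reads TTTCNNTTTC when it lies on the opposite strand, and overlapping matches run together.
Ifit1, chr19:34640729-34640888, plus strand: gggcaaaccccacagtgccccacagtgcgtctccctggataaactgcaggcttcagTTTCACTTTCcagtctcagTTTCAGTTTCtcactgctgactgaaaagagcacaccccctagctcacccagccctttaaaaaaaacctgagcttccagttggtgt
Ifit3, chr19:34583369-34583528, plus strand: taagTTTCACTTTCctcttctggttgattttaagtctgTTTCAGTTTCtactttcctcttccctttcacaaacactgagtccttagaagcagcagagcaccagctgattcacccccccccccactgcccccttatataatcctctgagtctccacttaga
Isg15, chr4:156200819-156200978, minus strand: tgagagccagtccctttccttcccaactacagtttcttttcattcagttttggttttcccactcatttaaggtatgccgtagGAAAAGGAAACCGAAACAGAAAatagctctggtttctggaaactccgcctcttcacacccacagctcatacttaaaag
Gbp2, chr3:142620503-142620662, plus strand: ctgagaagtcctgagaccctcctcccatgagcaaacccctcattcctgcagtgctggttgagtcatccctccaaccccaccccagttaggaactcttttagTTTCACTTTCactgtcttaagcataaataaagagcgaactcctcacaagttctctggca
Gbp3, chr3:142559884-142560043, plus strand: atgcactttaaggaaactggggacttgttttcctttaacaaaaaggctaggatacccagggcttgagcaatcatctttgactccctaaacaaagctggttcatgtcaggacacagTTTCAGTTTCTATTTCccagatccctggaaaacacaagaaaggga
Gbp7, chr3:142530176-142530335, plus strand: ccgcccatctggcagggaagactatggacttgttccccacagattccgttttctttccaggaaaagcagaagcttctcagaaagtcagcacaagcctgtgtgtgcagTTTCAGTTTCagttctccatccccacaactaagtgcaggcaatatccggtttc
Igtp, chr11:58199396-58199555, plus strand: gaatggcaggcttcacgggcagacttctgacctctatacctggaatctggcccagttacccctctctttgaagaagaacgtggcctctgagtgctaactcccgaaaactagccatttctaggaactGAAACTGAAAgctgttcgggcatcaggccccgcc
Irgm1, chr11:48871421-48871580, minus strand: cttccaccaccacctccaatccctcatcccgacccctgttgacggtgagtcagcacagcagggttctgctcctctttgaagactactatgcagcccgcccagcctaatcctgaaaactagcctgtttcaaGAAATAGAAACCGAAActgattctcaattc
B2m, chr2:122147527-122147686, plus strand: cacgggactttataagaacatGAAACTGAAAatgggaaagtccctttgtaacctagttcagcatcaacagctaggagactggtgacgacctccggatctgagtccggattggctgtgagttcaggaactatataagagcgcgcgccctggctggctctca
H2-T23, chr17:36032702-36032861, minus strand: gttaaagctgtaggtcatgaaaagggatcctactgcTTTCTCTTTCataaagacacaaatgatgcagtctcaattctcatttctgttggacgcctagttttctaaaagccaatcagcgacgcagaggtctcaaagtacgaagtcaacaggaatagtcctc
Ifit1 and Ifit3 each hold 2 separate cores, which begin 104 and 85 bases before the start in Ifit1 and 156 and 122 bases before it in Ifit3. Isg15 holds 3 overlapping cores that begin 78, 72 and 66 bases before the start. In the GTPases the cores lie closer to the start, beginning 59 bases before it in Gbp2, 45 and 39 in Gbp3, 53 in Gbp7, 34 in Igtp, and 30 and 24 in Irgm1. Among class I genes a core begins 139 bases before the start in B2m and 124 in H2-T23, and no match was found in the windows of H2-D1 and H2-K1. Ifit2, which did not vary with the other genes, had no match in either of its 2 listed promoters, nor did Oasl2, which followed the effector score at 0.91.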

How the data were processed

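RNA of the DR of 12 mice was sequenced by the authors with 75-base single reads, 1 library per animal, after dissection of a square of tissue below the aqueduct. Reads were mapped to mm10 with STAR 2.5.0b according to the submitters' processing notes, and the deposited files hold raw counts per gene symbol, without normalisation. The read counter, its annotation and the use of strand are not given in the sources used here. Lines for reads assigned to no single gene were left out, which left 84.2% to 86.1% of the reads listed. Genotype, sex and animal number came from the sample labels, which name no batch.

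Counts were normalised with TMM and tested for genotype, two-sided, with edgeR 4.0.16 in R 4.3.3 (quasi-likelihood test, filterByExpr at 10 counts per library and 15 in total) over 15453 genes, with Benjamini-Hochberg adjustment and a threshold of 0.05. Sex was tested with genotype as a covariate, and the interaction in the same way. Log2 CPM used a prior count of 2. Exact permutation tests used all 495 ways to part the animals into 4 and 8 (smallest p 0.00202), and for sex all 420 arrangements within genotypes. Replicates are separate animals. The code was checked on counts with known changes. Lengths, positions and shared 75-base windows are from GENCODE vM21 for GRCm38. Alternatives used DESeq2 1.42.0, limma-voom 3.58.1 with sample weights, RLE, other filters, a term for sex, and every animal omitted in turn. The genes named are the 8 with the smallest genotype p, the 6 with the largest SD, the 3 with the smallest sex p, the 2 with the smallest interaction p, a set of key genes, and the 10 other genes most like the effector score. Stat2, Irf3 and Cd74 stand for the wider pathway, and 1 further gene of it is not reported here. Other genes were named after their values were seen. The members and all lists were chosen with earlier results of these data known. Tables used pandas 2.3.3 and numpy 2.4.6 under Python 3.11.15, and figures matplotlib 3.10.9.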

Additional observations from a re-analysis of the deposited data

Results flagged for a closer look

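In 84 groups of animals (42 genes in 2 genotypes), 9 held a library whose gap to its nearest neighbour took more of the group's range than Dixon's 95% critical value allows. Chance flags about 1 in 20 groups, or 4.2 of 84. Within STAT3 KO, animal 10 stood above the other 7 for Ifit1 (gap 0.691 of the range), Ifit3 (0.637) and Nlrc5 (0.601, 2.43 CPM against 1.34 to 1.70). Animal 14 was the lowest for Mx1 (0.57), animal 8 the highest for Ifit2 (0.528, 24.5 CPM against 20.01 to 22.03), animal 6 the highest for Ifi35 (0.56, 5.62 CPM against 3.81 to 4.52) and animal 7 the lowest for Psmb8 (0.529, 3.35 CPM against 4.42 to 5.65). Within controls, animal 13 was the highest for Ifit3 (0.937, 12.8 CPM against 10.7 to 10.8) and for Mx2 (0.843, 2.18 CPM against 1.31 to 1.42).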

How the results depend on the processing

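No member had an adjusted p below 0.05 for genotype in edgeR under any filter, scaling, covariate or omitted animal, nor with limma-voom and sample weights, while DESeq2 gave none of the 42 an adjusted p. The count at an unadjusted p below 0.05, which was 2, became 1 with DESeq2 (Mx1, against 6.2% of all genes). It was 1 with limma-voom and sample weights (Tap2, so that neither Mx1 nor Oas2 was called, against 10.4%). In that setting the tool and the weights changed together, and their parts cannot be told apart. The count was 1 with at least 10 counts in every library (Oas2, as Mx1 was not tested, against 7.44%), 3 with sex as a covariate, which added Gbp2 at a log2 fold change of 0.23 (against 7.69%), and 0 to 2 with single animals left out (against 5% to 10.8%). Over all genes, calls for genotype numbered 2 with DESeq2, of 1391 genes with an adjusted p, and 0 to 1 with single animals left out. Genes higher in STAT3 KO numbered 22 to 37 with single animals left out, lowest without STAT3 KO 10, and 24 without control 11. Named genes near zero changed sign with single animals left out, with log2 fold changes from -0.014 to 0.089 for B2m, -0.0033 to 0.11 for H2-D1, -0.00069 to 0.20 for Irf7, -0.067 to 0.13 for Ifit1 and -0.088 to 0.13 for Isg15, and Isg15 was at -0.14 with limma-voom and sample weights. For sex, DESeq2 gave 1 gene with an adjusted p below 0.05, Gbp2 at a log2 difference of 0.43, and genes higher in females at an unadjusted p below 0.05 numbered 6 to 17 with single animals left out (against 2.68% to 4.92% of all genes). The cause of these changes was not tested. The median correlation of the effectors stayed between 0.34 and 0.47 under all alternatives, 0.35 with sex also taken off. That alternative and the permutation of sex within genotype were chosen after seeing the data. The paper describes the controls as littermates, but the labels give no litter, so litter could be neither paired nor modelled. Mx1, Oas1a and Oas2 rest on 3 to 35 counts per library, which limits what could be seen of them.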
